A study of Homo sapiens with 8 samples.

Results

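The genes encoding integrin subunits and laminin chains were examined in HepG2 cells treated with inhibitors of EZH1 and EZH2. Members were the rows of the expression table whose symbol names an integrin alpha subunit (ITGA), an integrin beta subunit (ITGB) or a laminin alpha, beta or gamma chain (LAMA, LAMB, LAMC). This gave 35 of 25603 genes, namely 15 alpha subunits, 8 beta subunits and 12 laminin chains. ITGA4, ITGA8 and ITGAD were not analysed here. HepG2 is an established human hepatocarcinoma cell line, and it was grown here on gelatin-coated dishes in medium containing insulin and dexamethasone. In the EZHi group, cells received UNC1999 and valemetostat tosylate together, each at 1 µM, for 4 days. In the vehicle group, cells received DMSO only, at 0.2% per the labels and a figure legend of the study, whereas its methods section gives a lower concentration. There were 4 libraries per group, numbered 1 to 4 in each. The inhibitors were given only in combination, in a single cell line and at a single time. The labels do not state whether libraries of a group came from separate cultures, but the study describes them as independent biological replicates.

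Integrins are transmembrane receptors made of an alpha and a beta subunit, which anchor cells to the extracellular matrix and connect it to the actin cytoskeleton. The alpha subunit largely sets the ligand: some integrins bind laminins, some collagens, some the RGD motif of fibronectin and vitronectin, and others are restricted to leukocytes. Laminins are trimers of an alpha, a beta and a gamma chain and are the core of basement membranes, the thin matrix sheets on which epithelial cells stand. In liver, hepatocytes face a sparse matrix with little laminin, whereas cholangiocytes, the epithelial cells of bile ducts, rest on a laminin-rich basement membrane. EZH1 and EZH2 catalyse H3K27 trimethylation, a repressive histone mark, as part of the polycomb complex PRC2.

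Expression is given as the deposited length-corrected log2 value, and levels are also expressed as an estimated FPKM obtained from it. Genes whose estimated FPKM averaged 0.1 or more over the 8 libraries were tested between groups with limma, and a gene is described as called when its adjusted p over all 20153 genes tested was under 0.05. In all, 29 members were tested. Hepatocyte markers were abundant in vehicle cells, from an estimated FPKM of 183 for TTR to 16089 for AFP. Read depth per library is unknown, since the values were already normalized for it. Libraries of equal number deviated together in both groups, so a fit with the replicate number as a term (replicate block) was also made. Its values are given where they change the call of a member. For other genes they are given only in part.

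The level of each member was first defined in vehicle cells. By mean transcript length, the laminin chains LAMA5 and LAMB2 had the highest mean levels. The estimated FPKM was 337 ± 30.7 (SD, n = 4) for LAMA5, 318 ± 46.5 (SD, n = 4) for LAMB2, 211 ± 4.30 (SD, n = 4) for LAMC1 and 95.9 ± 7.22 (SD, n = 4) for LAMB1. Of the summed estimated FPKM of laminin alpha chains, 99.7% ± 0.029 (SD, n = 4) came from LAMA5. Beta subunits were dominated by ITGB1, the partner of most alpha subunits, at 205 ± 18.5 (SD, n = 4), and ITGB5, which pairs with the alpha subunit ITGAV, at 204 ± 10.0 (SD, n = 4). These levels overlapped between libraries and could not be ordered. The next beta subunit was ITGB4, which pairs with ITGA6 in hemidesmosomes, at 25.2 ± 4.55 (SD, n = 4). Alpha subunits were led by ITGA6, a laminin receptor, at 64.9 ± 6.98 (SD, n = 4), followed by ITGAV, a receptor for RGD ligands, at 38.1 ± 8.24 (SD, n = 4) and ITGA2, a collagen receptor, at 37.1 ± 2.78 (SD, n = 4). The values of ITGAV and ITGA2 also overlapped.

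These levels rest on the mean length of the annotated transcripts of a gene, which is much shorter than the full transcript for several members. It was 1640 bases for LAMA5, against 11426 for its longest transcript, and 1145 against 5692 for LAMB2. Dividing by the longest transcript instead, a choice made after seeing the data, gave an estimated FPKM of 48.4 for LAMA5, 63.9 for LAMB2, 51.4 for LAMC1 and 56.5 for LAMB1, so that the 4 chains came out at similar levels. On this scale ITGB1 (113) exceeded ITGB5 (51.5). The order of the most abundant members therefore depended on the length used, whereas log2 differences between groups within a gene do not. Which genes reach the minimum for testing depends on it too. By the longest transcript, LAMA1 was at 0.0334 in vehicle and 0.0684 in EZHi, and ITGB3 at 0.0463 and 0.0722. ITGAM was at 0.0576 and 0.107. These 3 members are called below.

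**Figure D1:**
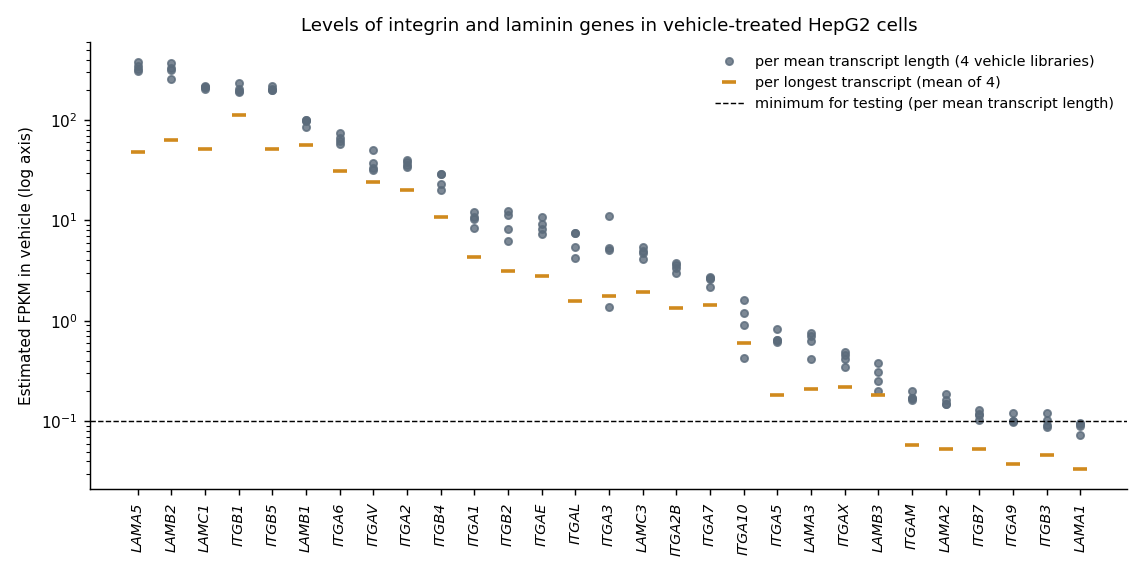
Level of the 29 integrin and laminin genes tested in the 4 vehicle libraries, as estimated FPKM on a log axis. Circles show each library divided by the mean transcript length, orange bars show the mean divided by the longest transcript, and the dashed line marks the minimum of 0.1 used for testing; LAMA5, LAMB2 and LAMC1 lead the circles but not the orange bars.

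At the other end, 6 members stayed under the minimum, with a mean estimated FPKM between 0.0274 and 0.0424. Among these were ITGA11, a collagen receptor, ITGB6 and ITGB8, which both pair with ITGAV, and the laminin chains LAMA4 and LAMB4. ITGB8, one of the genes the study examined as GRHL2 targets, was at -0.42, -0.43, -0.42 and -0.43 in vehicle replicates 1 to 4. In EZHi replicates 1 to 4 it was at -0.43, -0.24, -0.42 and -0.24. Being under the minimum, these genes were not tested.

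In EZHi-treated cells, ITGA5, ITGA7, ITGAM, ITGA2B and ITGAX among the alpha subunits, ITGB3 among the beta subunits, and LAMA1, LAMB3, LAMA3, LAMC3 and LAMC1 among the laminins were higher than in vehicle cells. ITGA2 and ITGB5 were lower. Thus 13 of 29 members tested (44.8%) were called, against 13.1% of all genes tested. The members, and the lists below, were chosen with earlier results of these data known, so such shares are descriptive only. Calls were in the upward direction for 11 members (37.9%, against 8.85% of all genes) and in the downward direction for 2 (6.90%, against 4.27%). The groups did not overlap for these same 13 genes, with every EZHi library above vehicle for 11 (against 10.7% of all genes) and below for 2 (against 7.93%). The members' median log2 fold change was 0.20, compared with -0.0077 over all genes tested. LAMA1 passed the minimum through the EZHi libraries only, and without it 12 of 28 members were called. Members called higher were mostly of low abundance. Of the 18 members averaging under an estimated FPKM of 10, 10 rose, LAMA1 among them, against 12.7% of all genes at that level. Among the 11 members at 10 and over, LAMC1 was called higher, against 2.73% of all genes at that level. ITGA2 and ITGB5 were called lower, against 9.16%. For genes of this upper class the median over all genes was itself negative, at -0.095. With the replicate block, 17 members were called, against 30% of all genes, with 12 higher (against 14.9% of all genes) and 5 lower (against 15.1%). The share called lower with the block was thus close to that over all genes. The members gained were ITGB4, ITGAV and LAMB1, which were lower, and LAMB2, which was higher. As these are bulk libraries, a change in RNA per cell and a change in the share of expressing cells cannot be told apart.

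**Figure D2:**
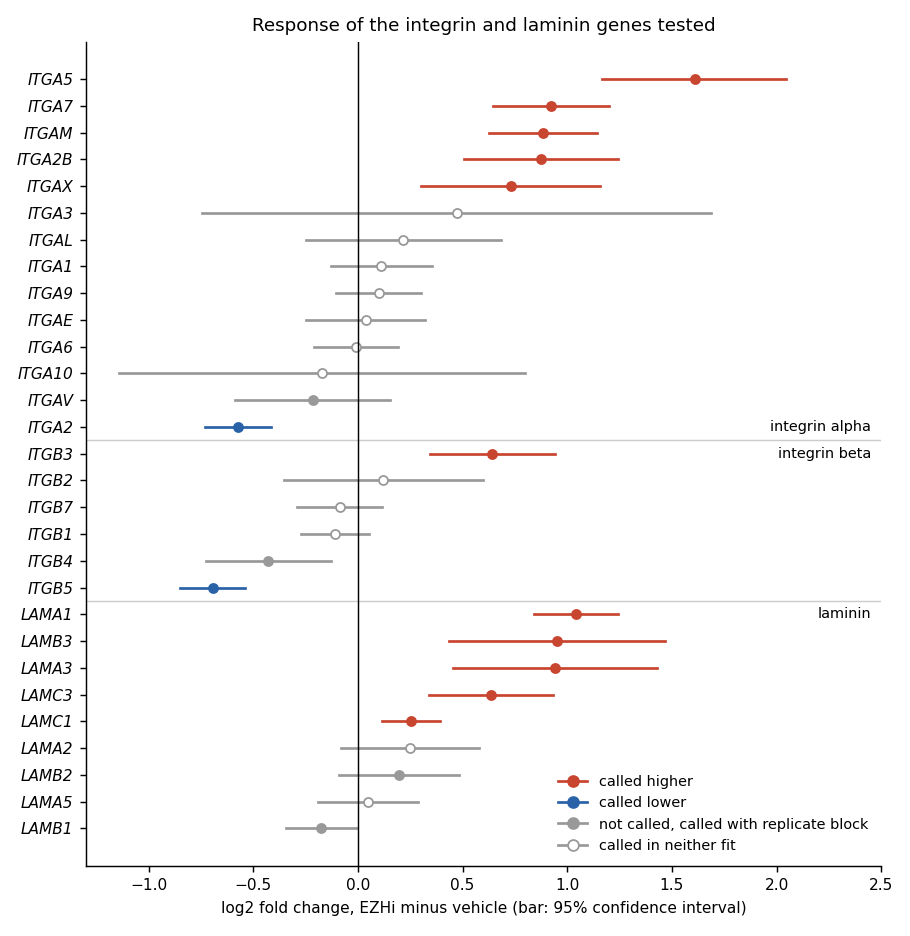
Log2 fold change (EZHi minus vehicle) of the 29 integrin and laminin genes tested, with 95% confidence intervals from limma; red marks genes called higher, blue genes called lower and grey genes not called, with filled symbols for those called with the replicate block. ITGA5 is farthest to the right at 1.61 and ITGB5 farthest to the left at -0.69.

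Among integrins that bind RGD ligands, ITGA5 (ENSG00000161638, chr12:54395261-54419266, GRCh38, minus strand) encodes the alpha subunit of the main fibronectin receptor. It was at 4.05, 4.42, 3.97 and 4.03 in vehicle replicates 1 to 4 and at 5.64, 6.25, 5.29 and 5.71 in EZHi replicates 1 to 4. Every EZHi library was above every vehicle library, and in both groups replicate 2 was the highest and replicate 3 the lowest. The log2 fold change was 1.61, or 3.05-fold (standard error, SE, 0.20, limma adjusted p 0.000512), the largest change of any member tested. In estimated FPKM it went from 0.683 ± 0.10 (SD, n = 4) to 2.13 ± 0.61 (SD, n = 4). ITGA2B (ENSG00000005961, chr17:44372180-44389649, minus strand), known as the alpha subunit of the platelet fibrinogen receptor, was at 6.42, 6.25, 6.60 and 6.51 in vehicle and at 7.08, 7.06, 7.80 and 7.32 in EZHi, with no overlap between groups and the highest value in EZHi replicate 3. Its log2 fold change was 0.87 (SE 0.16, limma adjusted p 0.00664). The platelet marker GP1BA was at an estimated FPKM of 0.127 in vehicle and 0.136 in EZHi and was not called, and PF4, GP9 and PPBP were not analysed here. ITGAV, whose product pairs with several beta subunits, was between 9.67 and 10.32 in vehicle and between 9.38 and 9.99 in EZHi. The groups overlapped (log2 fold change -0.22, limma adjusted p 0.456), but EZHi was below vehicle in all 4 pairs of libraries of equal number, by 0.095 to 0.33, and ITGAV was called lower with the replicate block (limma adjusted p 0.015).

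Of the laminin-binding alpha subunits ITGA3, ITGA6 and ITGA7, the last was called. ITGA7 (ENSG00000135424, chr12:55684568-55716404, minus strand), a laminin receptor best known from muscle, was at 6.08, 5.80, 6.12 and 6.08 in vehicle and at 6.89, 6.85, 7.23 and 6.80 in EZHi. The groups did not overlap, and the rise was 0.92 on the log2 scale (SE 0.12, limma adjusted p 0.000914). ITGA6, the most abundant alpha subunit, was between 10.54 and 10.89 in vehicle and between 10.56 and 10.83 in EZHi, and its log2 fold change was -0.0099 (95% confidence interval -0.21 to 0.19). ITGA3, an epithelial laminin receptor and one of the genes the study examined as GRHL2 targets, was at 7.09, 8.15, 5.15 and 7.03 in vehicle and at 7.26, 8.01, 6.66 and 7.37 in EZHi. Its spread within vehicle was the widest of any member (SD 1.25, n = 4). The log2 fold change of 0.47 had a 95% confidence interval from -0.74 to 1.69, so that no change was detectable in either direction. It became -0.096 when vehicle replicate 3 was left out, and ITGA3 was also not called with the replicate block (limma adjusted p 0.15).

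Among collagen receptors, ITGA2 (ENSG00000164171, chr5:52989340-53094779, plus strand) was at 9.77, 10.01, 9.94 and 9.82 in vehicle and at 9.27, 9.32, 9.39 and 9.27 in EZHi. Every EZHi library was below every vehicle library, and the libraries of a group lay close together. It fell by 0.57 on the log2 scale (SE 0.070, limma adjusted p 0.000533). ITGA1, which lies 30131 bases before ITGA2 on the same strand, was between 7.76 and 8.29 in vehicle and between 8.07 and 8.22 in EZHi, with overlapping groups and a log2 fold change of 0.11 (limma adjusted p 0.572). Of the exonic bases of ITGA1, 13.2% are shared with other genes, among them PELO, whose reads cannot be told apart there. ITGA10, a further collagen receptor, spread from 3.47 to 5.36 in vehicle and from 3.47 to 5.15 in EZHi (log2 fold change -0.17, 95% confidence interval -1.14 to 0.80), and its sign changed to 0.086 without vehicle replicate 2 and to 0.14 without EZHi replicate 3.

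Subunits known mainly from leukocytes were also measured. ITGAM (ENSG00000169896, chr16:31259967-31332892, plus strand), the alpha subunit of complement receptor 3, was at 2.36, 2.12, 2.06 and 2.13 in vehicle and at 2.77, 3.09, 3.27 and 3.09 in EZHi, without overlap. It rose by 0.88 on the log2 scale (SE 0.12, limma adjusted p 0.000773), from an estimated FPKM of 0.176 to 0.327. Its neighbour ITGAX (ENSG00000140678, chr16:31355134-31382999, plus strand), 22242 bases further along, was at 3.54, 3.16, 3.64 and 3.43 in vehicle and at 4.31, 3.71, 4.62 and 4.04 in EZHi. Here too the groups did not overlap, with replicate 3 highest and replicate 2 lowest in both. ITGAX rose by 0.73 (SE 0.19, limma adjusted p 0.0324), a call lost without any 1 of vehicle replicates 1, 2 and 4 or EZHi replicates 1, 3 and 4 (adjusted p 0.0615 to 0.0864). The call was kept with the replicate block (limma adjusted p 0.00134). ITGAL, also a leukocyte alpha subunit, was between 6.75 and 7.60 in vehicle and between 7.28 and 7.88 in EZHi, and ITGAE, which pairs with ITGB7, between 7.56 and 8.10 and between 7.69 and 8.02. Neither was called (limma adjusted p 0.568 and 0.90). Outside this leukocyte group, the remaining alpha subunit ITGA9 stayed near the minimum, at an estimated FPKM of 0.105 in vehicle and 0.112 in EZHi (limma adjusted p 0.552).

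Leukocyte markers were followed beside these genes. Of 8 markers, 4 were tested, and CORO1A was called higher (log2 fold change 0.46, limma adjusted p 0.0154). This was 25% of those tested, against 13.1% of all genes. CSF1R was at an estimated FPKM of 0.171 in vehicle and 0.245 in EZHi (limma adjusted p 0.0937), and was called higher with the replicate block (0.0373). LYZ was not called. CD3E and SPI1, at 0.0511 and 0.0632 in vehicle, were under the minimum, and PTPRC and CD68 were not analysed here. The summed estimated FPKM of the list, nearly all of it from LYZ, ranged from 1225 to 1701 in vehicle and from 1103 to 1574 in EZHi. The part of other cell types in the leukocyte integrin values was not tested.

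For beta subunits, ITGB5 (ENSG00000082781, chr3:124761948-124901418, minus strand) was at 12.31, 12.33, 12.31 and 12.45 in vehicle and at 11.69, 11.78, 11.55 and 11.61 in EZHi. The groups were clearly apart, and it fell by 0.69 on the log2 scale (SE 0.069, limma adjusted p 0.000152), the largest fall of any member. In estimated FPKM this was a change from 204 ± 10.0 (SD, n = 4) to 127 ± 8.79 (SD, n = 4). Its share of the summed estimated FPKM of beta subunits, which depends on the lengths used, went from 46.1% ± 2.31 (SD, n = 4) to 36.7% ± 1.13 (SD, n = 4), and that of ITGB1 from 46.0% ± 2.81 (SD, n = 4) to 54.9% ± 0.93 (SD, n = 4). ITGB1 itself was between 12.26 and 12.53 in vehicle and between 12.19 and 12.28 in EZHi. Its log2 fold change was -0.11 (95% confidence interval -0.27 to 0.052) and it was called in neither fit. ITGB4, the hemidesmosome subunit, was at 9.191, 9.541, 8.996 and 9.532 in vehicle and at 8.725, 9.081, 8.811 and 8.931 in EZHi. The groups overlapped slightly, with EZHi below vehicle in all 4 pairs by 0.19 to 0.60. The log2 fold change was -0.43 (SE 0.13, limma adjusted p 0.0652), and ITGB4 was called lower with the replicate block (0.00189) and, without the block, when vehicle replicate 3 was left out (log2 fold change -0.53, adjusted p 0.0178).

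ITGB3 (ENSG00000259207, chr17:47253827-47313743, plus strand), the partner of ITGA2B and of ITGAV, was at 1.25, 1.15, 1.41 and 1.64 in vehicle and at 2.26, 1.72, 2.10 and 1.94 in EZHi. The groups did not overlap, and it rose by 0.64 (SE 0.13, limma adjusted p 0.0114). Its level was low, at an estimated FPKM of 0.101 in vehicle and 0.158 in EZHi, and 33.2% of its exonic bases are shared with another annotated gene on the same strand. ITGB2, the common beta subunit of ITGAL, ITGAM and ITGAX, was between 7.31 and 8.33 in vehicle and between 7.79 and 8.28 in EZHi and was not called (log2 fold change 0.12, limma adjusted p 0.783). ITGB7 was at an estimated FPKM of 0.117 in vehicle and 0.110 in EZHi (limma adjusted p 0.595), with 42.3% of its exonic bases shared with ZNF740.

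**Figure D3:**
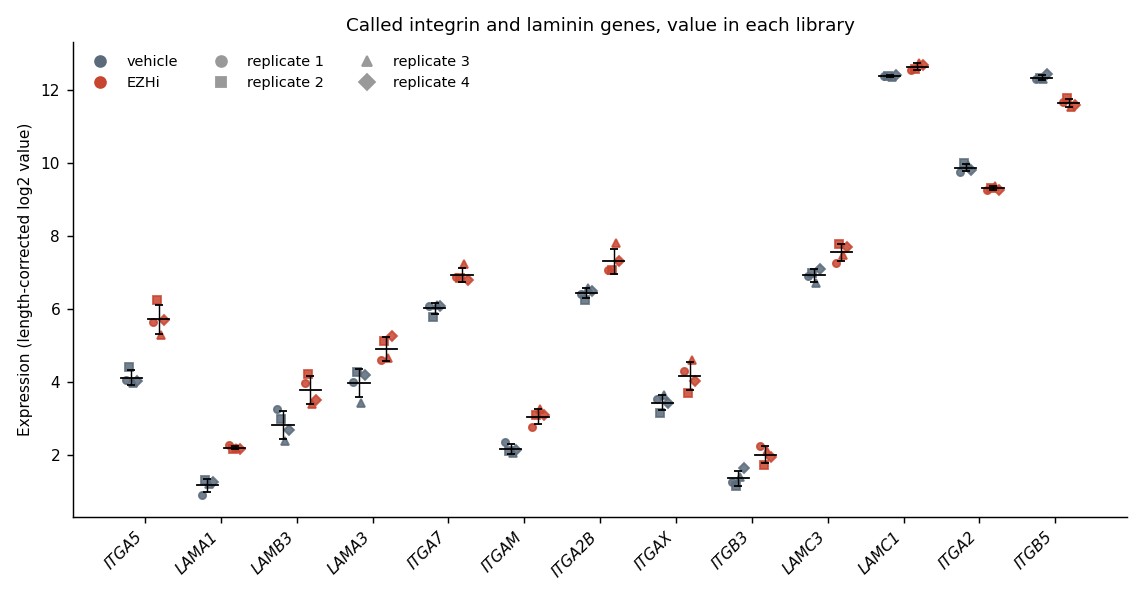
Length-corrected log2 value of the 13 called integrin and laminin genes in each of the 4 vehicle (grey) and 4 EZHi (red) libraries; the symbol gives the replicate number, horizontal lines the group mean and bars the SD. The groups do not overlap for any of these genes, and the lowest group mean is that of LAMA1 in vehicle, at 1.17.

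Laminin alpha chains came next. LAMA1 (ENSG00000101680, chr18:6941742-7117797, minus strand), the chain of the laminin of early embryos, was at 0.90, 1.31, 1.20 and 1.26 in vehicle and at 2.28, 2.17, 2.20 and 2.17 in EZHi. All EZHi libraries were above all vehicle libraries, with a log2 fold change of 1.04 (SE 0.090, limma adjusted p 6.02e-05). It remained rare, at an estimated FPKM of 0.0882 in vehicle and 0.180 in EZHi. Being under the minimum of 0.1 in vehicle, LAMA1 was tested through its EZHi libraries only. The regularized log shrinks differences between libraries at such low levels, so the small spread of LAMA1 does not measure reproducibility. The same limit holds for ITGB3 and ITGAM. Of the exonic bases of LAMA1, 11.1% are shared with genes on the opposite strand. LAMA3 (ENSG00000053747, chr18:23689453-23956222, plus strand), the alpha chain of laminin-332, the ligand of epithelial hemidesmosomes, was at 4.02, 4.28, 3.42 and 4.19 in vehicle and at 4.61, 5.13, 4.67 and 5.27 in EZHi. The lowest EZHi value was above the highest vehicle value, and LAMA3 rose by 0.94 (SE 0.22, limma adjusted p 0.0188). Without EZHi replicate 4 its adjusted p was 0.0603 and the log2 fold change 0.82. It made up 0.186% ± 0.036 (SD, n = 4) of laminin alpha transcripts in vehicle and 0.343% ± 0.063 (SD, n = 4) in EZHi. LAMA5, the dominant alpha chain, was between 12.93 and 13.24 in vehicle and between 12.86 and 13.29 in EZHi (log2 fold change 0.049, 95% confidence interval -0.19 to 0.29). LAMA2, the chain of muscle basement membrane, was between 1.91 and 2.27 in vehicle and between 1.93 and 2.56 in EZHi and was not called (limma adjusted p 0.324).

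Laminin beta and gamma chains were then considered. LAMB3 (ENSG00000196878, chr1:209614870-209652425, minus strand), the beta chain of laminin-332, was at 3.28, 2.98, 2.37 and 2.69 in vehicle and at 3.99, 4.23, 3.40 and 3.51 in EZHi. The lowest EZHi library was just above the highest vehicle library. LAMB3 rose by 0.95 (SE 0.23, limma adjusted p 0.0231), and the call was lost without vehicle replicate 4 (0.0679), EZHi replicate 1 (0.0671) or EZHi replicate 2 (0.052). Within pairs of equal number the difference was 0.71, 1.25, 1.03 and 0.82, and the fit with the replicate block gave a limma adjusted p of 0.000366. The abundant beta chains differed in sign: LAMB1 was between 11.10 and 11.34 in vehicle and between 10.99 and 11.18 in EZHi (log2 fold change -0.17, limma adjusted p 0.181), and LAMB2 was between 12.68 and 13.21 and between 13.00 and 13.45 (0.20, adjusted p 0.377). Both were called with the replicate block, with limma adjusted p of 0.0287 and 0.0362.

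LAMC1 (ENSG00000135862, chr1:183023420-183145592, plus strand), the gamma chain of most laminins, was at 12.41, 12.41, 12.36 and 12.43 in vehicle and at 12.57, 12.60, 12.74 and 12.71 in EZHi. The groups did not overlap, although the rise was small, at 0.25 (SE 0.062, limma adjusted p 0.0253), or 1.19-fold. The call was lost without any 1 of the 4 vehicle libraries or of EZHi replicates 3 and 4 (adjusted p 0.0527 to 0.0774), and was kept with the replicate block (0.0052). LAMC3 (ENSG00000050555, chr9:131009174-131094473, plus strand), a gamma chain with a narrower tissue distribution, was at 6.91, 6.99, 6.71 and 7.11 in vehicle and at 7.28, 7.79, 7.48 and 7.71 in EZHi. All EZHi libraries were above all vehicle libraries, and LAMC3 rose by 0.64 (SE 0.13, limma adjusted p 0.0115). It accounted for 2.21% ± 0.21 (SD, n = 4) of gamma chain transcripts in vehicle and 2.88% ± 0.46 (SD, n = 4) in EZHi.

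Several members varied with the replicate number in both groups. For ITGA3, replicate 2 was the highest and replicate 3 the lowest library in both groups, and the EZHi minus vehicle difference within pairs was 0.17, -0.14, 1.51 and 0.34. ITGA10 had the same order of extremes, with pair differences of -0.16, -0.21, 0.0047 and -0.32. For ITGAV, replicate 2 was likewise the highest and replicate 3 the lowest library in both groups. For LAMB3 the lowest library was replicate 3 in both groups. What distinguished the numbered replicates is not given in the labels.

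**Figure D4:**
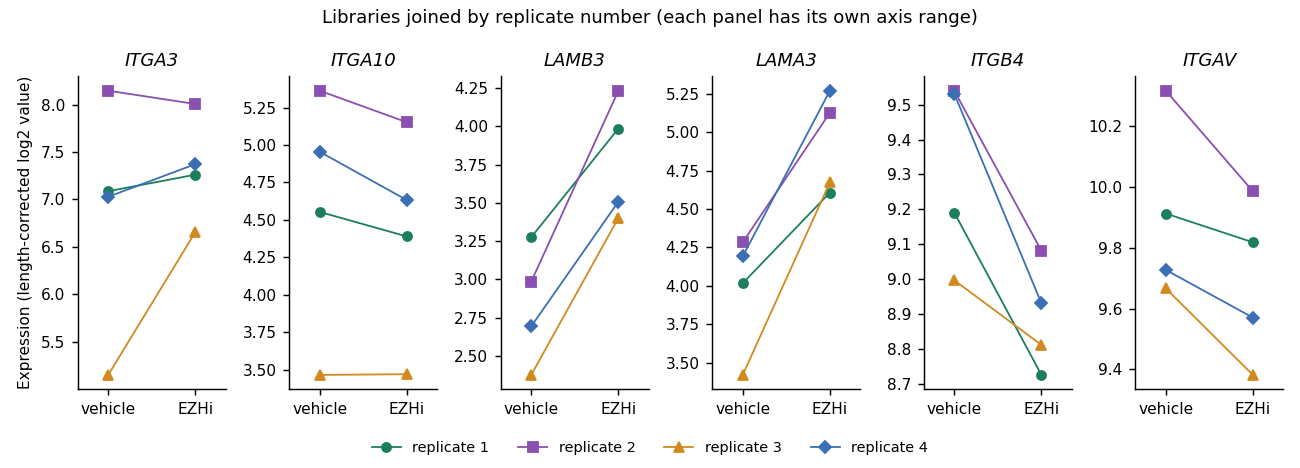
Length-corrected log2 value of 6 integrin and laminin genes in vehicle and EZHi, with lines joining libraries of equal replicate number and a separate axis range in each panel. For ITGA3 the replicate 3 pair rises by 1.51 while the other pairs move between -0.14 and 0.34, whereas all 4 lines rise for LAMB3 and LAMA3 and all 4 fall for ITGB4 and ITGAV.

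Promoter sequences were inspected for members that responded, since the density of CpG dinucleotides at promoters is a known correlate of PRC2 recruitment. The RefSeq table used (GRCh38.p14) held windows of 300 bases, from 250 before to 50 after a start site, for 24 of the 35 genes. ITGA5, the largest rise, and ITGA2, the largest fall among alpha subunits, are shown with LAMC1, which had the most CpG among called genes, and ITGA2B, which together with ITGAM had the fewest. Each sequence is given 5′ to 3′ on the strand of the gene, with CpG dinucleotides in capitals.
ITGA5, chr12:54419217-54419516, minus strand: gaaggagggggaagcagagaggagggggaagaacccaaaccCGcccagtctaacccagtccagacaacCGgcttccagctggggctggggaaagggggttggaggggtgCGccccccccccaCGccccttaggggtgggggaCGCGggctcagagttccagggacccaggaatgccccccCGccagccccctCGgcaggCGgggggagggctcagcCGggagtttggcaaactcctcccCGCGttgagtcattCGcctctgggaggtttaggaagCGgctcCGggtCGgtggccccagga
ITGA2B, chr17:44389600-44389899, minus strand: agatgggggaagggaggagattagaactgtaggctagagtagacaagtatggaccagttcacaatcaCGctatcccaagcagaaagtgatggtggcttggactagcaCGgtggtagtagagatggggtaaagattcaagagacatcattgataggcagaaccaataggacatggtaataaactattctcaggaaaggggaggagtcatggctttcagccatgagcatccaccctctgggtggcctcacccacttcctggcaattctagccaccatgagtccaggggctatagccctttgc
LAMC1, chr1:183023170-183023469, plus strand: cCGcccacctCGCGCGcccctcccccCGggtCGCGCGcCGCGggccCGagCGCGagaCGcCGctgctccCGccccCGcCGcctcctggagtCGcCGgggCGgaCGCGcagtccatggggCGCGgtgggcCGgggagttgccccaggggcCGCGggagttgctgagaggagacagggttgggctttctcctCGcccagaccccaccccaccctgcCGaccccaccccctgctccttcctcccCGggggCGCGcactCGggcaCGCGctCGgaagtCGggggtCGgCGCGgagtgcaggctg
ITGA2, chr5:52989102-52989401, plus strand: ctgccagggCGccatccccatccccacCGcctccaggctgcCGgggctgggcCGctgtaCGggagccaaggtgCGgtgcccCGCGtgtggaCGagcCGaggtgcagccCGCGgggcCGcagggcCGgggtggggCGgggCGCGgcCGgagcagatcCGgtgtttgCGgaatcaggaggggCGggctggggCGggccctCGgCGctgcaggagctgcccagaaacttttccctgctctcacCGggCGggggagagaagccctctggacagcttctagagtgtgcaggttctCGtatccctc

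These windows held 16 CpG dinucleotides for ITGA5, 2 for ITGA2B, 41 for LAMC1 and 27 for ITGA2, with a GC content of 69.3%, 49.7%, 79.0% and 72.7%. Taking the window richest in CpG for genes with several, the median was 16 over 27305 genes. The 6 genes called higher that had a window ranged from 2 to 41 with a median of 12, comprising ITGAM (2), LAMB3 (11) and LAMA3 (13) beside those shown. The 2 genes called lower had 27 (ITGA2) and 32 (ITGB5), and 11 genes that were tested and not called ranged from 2 to 41 with a median of 19. Genes that rose therefore included windows with few CpG and windows with many. The letters AACNNGTT, which read the same on both strands and include the core bound by grainyhead-like factors such as GRHL2, were found in 0 of the 24 genes, against 4.36% of all genes with a window. This describes only these windows and not more distant sites.

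Genes that act with integrins were then examined. Of 32 adhesion effector genes tested, which encode the proteins joining integrins to actin and to signalling, 1 was called higher and 5 lower. This was 18.8%, against 13.1% of all genes. Most of the list lies at an estimated FPKM of 10 and over, where 2.73% of all genes were called higher and 9.16% lower. The list's median difference was -0.12 (log2), close to the -0.095 over all genes at that level. The genes called lower were ZYX (zyxin, at focal adhesions and stress fibres) at -0.60, ACTN1 (the actin crosslinker alpha-actinin) at -0.46, FERMT2 (kindlin-2, an integrin activator) at -0.44, BCAR1 (the adaptor p130Cas) at -0.38 and TNS2 (tensin 2) at -0.36, with limma adjusted p from 0.0004 to 0.0105. All had lower values in EZHi in 4 of 4 pairs. PARVG, a parvin of blood cells, was called higher (log2 fold change 0.66, limma adjusted p 0.0137), from an estimated FPKM of 0.0836 to 0.135. PARVG passed the minimum through the EZHi libraries only, and without it the list held no upward call. With the replicate block, 3 were called higher and 12 lower, against 14.9% and 15.1% of all genes. Among the 7809 genes at an estimated FPKM of 10 and over, however, the block called 640 higher and 2538 lower. The lower calls of the list were thus not far from the share at its level.

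Of 30 genes tested that encode non-laminin ligands, basement membrane components or other matrix receptors, 7 were called higher and 2 lower, or 30.0%. Over all genes, 8.85% were called higher and 4.27% lower, or 13.1%. The list's median difference was 0.025 (log2). NPNT, which encodes nephronectin, a ligand of the integrin with subunit ITGA8, rose most, by 2.24 (SE 0.15, limma adjusted p 1.27e-05), from an estimated FPKM of 4.03 to 19.3. Among basement membrane genes of the list, FBLN2 (1.46), NID2 (1.28), NTN1 (0.64) and NID1 (0.60) rose as well. The nidogens NID1 and NID2 bind laminin directly. FBLN2 and NID2 were rare in vehicle, at an estimated FPKM of 0.225 and 0.173, and NTN1 reached 0.307 in EZHi. Not called were HSPG2 (-0.11), AGRN (-0.16), FBLN1 (0.13) and TINAGL1 (0.16), with limma adjusted p from 0.238 to 0.655. NTN4 (-0.39, adjusted p 0.137) was called lower with the replicate block only (0.00914). FGB and FGG, which encode chains of fibrinogen and are made by hepatocytes, rose by 0.92 and 0.50. SDC4, a syndecan of focal adhesions, fell by 0.56, and ICAM1, a ligand of the leukocyte integrins, fell by 0.51. With the replicate block, 11 were called higher and 9 lower, against 14.9% and 15.1% of all genes. Most of this list also lies at an estimated FPKM of 10 and over, where the block called 2538 of 7809 genes lower and 640 higher. Of 4 further hemidesmosome genes, 1 was called (25%, against 13.1% of all genes). This was COL17A1, which was higher (log2 fold change 0.81, limma adjusted p 0.00367) at a low level, from an estimated FPKM of 0.121 to 0.210. DST (-0.33, adjusted p 0.254) and CD151 (-0.24, 0.106) were called lower with the replicate block only (0.00143 and 0.00944).

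Markers of other cell types were set beside the matrix genes. Of 4 endothelial markers, 2 were tested. CDH5 was called higher, from an estimated FPKM of 0.317 to 1.68 (50% of those tested, against 13.1% of all genes). PECAM1 was at 1.61 and 1.65 and was not called, and TEK, under the minimum, was at 0.00682 in vehicle. The summed estimated FPKM of the endothelial list ranged from 1.69 to 2.05 in vehicle and from 2.30 to 4.78 in EZHi. For fibroblast markers it ranged from 12.2 to 15.0 in vehicle and from 14.7 to 17.2 in EZHi, with PDGFRB and COL1A1 tested and not called. The part of such cells in the matrix gene values was not tested.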

How the data were processed

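HepG2 mRNA libraries (4 vehicle, 4 EZHi; paired reads of 150 bp) were grouped and numbered from their titles. According to the methods and labels, the authors mapped reads to hg38 with HISAT2 (2.2.1 in the submitters' processing notes), counted them over exons without regard to strand with HTSeq 0.9.1, removed genes with very few reads, and applied the regularized log of DESeq2 (1.40.2) with a correction for mean transcript length. The table is named as FPKM, but its deposited values are log2 (-6.81 to 19.01). The regularized log shrinks differences of genes with few reads, so their fold changes are understated. It shrinks their spread within groups as well, so their standard errors and adjusted p do not measure reproducibility. Reads over exons shared with another gene cannot be assigned to a single gene. Where both genes lie on the same strand, strand would not help.

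Of 25604 rows, 1 repeated row was dropped. Coordinates and lengths came from GENCODE release 44 (GRCh38, the build of the authors). The estimated FPKM is the unlogged value divided by 25.6, the mean over libraries of the summed normalized reads in units of 10 to the power 6 (24.4 to 27.3). Genes at 0.1 or over were tested with limma 3.58.1 in R 4.3.3 (lmFit, eBayes with a trended prior, two-sided, Benjamini-Hochberg adjustment), after a check on simulated data. No interval for counting error can be given, since depth is unknown. Tables and plots were made with Python 3.11.15, pandas 2.3.3 and matplotlib 3.10.9.

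Deviations from the group mean correlated between libraries of equal number (0.31, 0.56, 0.63 and 0.22 for numbers 1 to 4), and each library correlated best with its own number. The numbers were therefore treated as pairing the libraries in the replicate block fit. The main fit held the group only, so values not marked as from the block ignore the pairing. The pairing comes from these correlations, not from the labels. All called members, and every other member tested, are named, 1 member under the minimum and 1 marker gene are not reported here, and called genes of the other lists are named up to 10 a list. The members and lists were chosen with earlier results of these data known. Alternatives were another minimum level, a pseudocount, other scalings, the replicate block, an untrended prior and leaving out each library.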

Additional observations from a re-analysis of the deposited data

Results flagged for a closer look

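Dixon's test at the 95% level, which sets the distance of an extreme library from its neighbour against the whole range of its 4 values, was applied to each member tested in each group. It singled out 3 libraries in 58 sets of values, where chance gives about 2.9. ITGA7 in vehicle replicate 2 was at 5.80 against 6.08 to 6.12 in the other vehicle libraries. ITGA9 in vehicle replicate 3 was at 1.63 against 1.34 to 1.37. ITGB5 in vehicle replicate 4 was at 12.45 against 12.31 to 12.33.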

How the results depend on the processing

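The number of members called was 13 (11 higher, 2 lower). It was 7 (5 higher) when the minimum was an estimated FPKM of 1, which leaves fewer members to test, and 10 (8 higher) with quantile normalization, where ITGAX, LAMA3 and LAMB3 lost their calls (adjusted p 0.104, 0.0607 and 0.0685). With a pseudocount of 0.5 or 1, libraries centred on abundant genes, no filter or an untrended prior it stayed at 13. Across the fits without 1 library it ranged from 10 to 13, with 8 to 10 higher and 2 to 3 lower. With the replicate block, which pairs libraries of equal number, 17 members were called, 5 of them lower. Called with it were also 15 adhesion effector, 20 matrix and 3 hemidesmosome genes, against 6, 9 and 1 without it. Over all genes, 30% were called with the block and 13.1% without it. The block ended no call of a member. Hemidesmosome calls were 0 at the higher minimum and ranged from 1 to 2 across the fits without 1 library. The 13 called members kept their sign throughout. Among members not called, the sign changed for ITGA6 (0.11 with quantile normalization, 0.086 with centring), ITGA9 (-0.030 with quantile normalization) and ITGB7 (0.00735 with centring). Without 1 library it changed for ITGA3, ITGA6, ITGA10, ITGAE, ITGB2 and LAMA5, whose ranges were -0.096 to 0.90, -0.062 to 0.055, -0.55 to 0.14, -0.048 to 0.13, -0.072 to 0.27 and -0.0088 to 0.14. The cause of these changes was not tested. The unknown depth limits what can be said of members near the minimum.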
